A study of Mus musculus with 12 samples.

Results

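The genes described here run the cell division cycle and copy DNA. They were taken from a list of 55 symbols, chosen with earlier results of these data known. It held cyclins, cyclin-dependent kinases (CDKs) with their phosphatases and inhibitors, transcription factors of the cycle, replication and nucleotide synthesis genes, and genes of mitosis. Of these 55, 53 had a probe set with a symbol of its own and were measured, among 19938 genes in all; Cdkn1a and Ccnb1 were not analysed here. For each gene the probe set with the highest mean was used. All 53 lay above the mean level of the median gene (7.40 on the log2 scale), so no member was lost to dimness.

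In the textbook cycle, D cyclins with CDK4 and CDK6, and then cyclin E with CDK2, inactivate the retinoblastoma protein and free E2F factors, which turn on genes for DNA replication. Cyclin A and cyclin B with CDK1 later drive mitosis once CDC25 phosphatases have removed inhibitory phosphates from the kinases, and FOXM1 and B-MYB turn on the genes of mitosis. Activated T cells divide rapidly, and these transcripts are known to be abundant in T cells that respond to foreign tissue.

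The cells were donor CD4+ T cells of C57Bl/6 mice, taken from spleen and lymph node of B6D2F1 hosts 48 hr after the transfer that starts a graft-versus-host response. By their CFSE dye content they had completed at least 2 divisions, and they were isolated with beads and flow sorting. All treatments were given to the host i.p. One group got 15 µg/kg of TCDD once, on day 0. The Cl-BBQ group got 2 mg/kg on both day 0 and day 1, the vehicle group was dosed on those same days, and mice were killed on day 2. TCDD, a dioxin, and Cl-BBQ both act through AhR, the aryl hydrocarbon receptor, which regulates transcription once a ligand is bound. Mice were 10 to 12 weeks old, and the labels give no genotype beyond the strain. Each group had 4 arrays, numbered 1 to 4, and no label says what the number marks. Because only cells with at least 2 divisions were kept, cells that divided less are outside these measurements, and a change in how many cells entered division cannot be read from them. Dose and schedule differed between the compounds, and the schedule of TCDD also differed from that of vehicle.

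Array medians were 7.11 to 7.24, and the correlation between arrays over probe sets, which are not independent, was 0.988 to 0.995. Of 13 CD4 T cell genes, 11 were measured and 11 of these lay above the median gene; their summed linear intensity was 62957 to 67420 in vehicle, 63494 to 68838 with TCDD and 61908 to 70668 with Cl-BBQ. Of the Cl-BBQ arrays, Cl-BBQ 1, Cl-BBQ 3 and Cl-BBQ 4 stood apart, each in its own way. Over all genes, Cl-BBQ 1 was the lowest of the 12 arrays in 17.4%, against 2.86% to 14.3% on the others. Cl-BBQ 3 did not show the AhR target Cyp1b1 raised (5.93, against 6.25 to 6.57 in vehicle and 7.89 to 8.24 on the other Cl-BBQ arrays), and Cl-BBQ 4 was low across many of the genes described here. Values below are log2 intensities, differences are log2 differences with 95% intervals, and adjusted p values are from limma over all 19938 genes, with a call at an adjusted p under 0.05. The array gives no length-corrected level, so differences are read between groups and members are not ranked by level. Placing genes above or below the median gene, and sums over markers, are rough guides only.

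Cdc25b and Cdk6 were the members called in any comparison, and the RefSeq (GRCm38.p6) bases before their transcription starts are shown with those of Mcm5, of the replicative helicase, and Cdk1, the mitotic kinase, as members that were not called. Each stretch is the 250 bases before the start, 5′ to 3′ on the gene's strand. Capitals mark matches, on either strand, to GCGTG (the core bound by the AhR complex), to TTTGGCGC, TTTCCCGC, TTTCGCGC or TTTGCCGC (E2F), to TTTGAA or TTCGAA (the cell cycle homology region, CHR) and to CCAAT (the CCAAT box). In Mcm5 the E2F matches on the opposite strands overlap.
Cdc25b, chr2:131186698-131186947, plus strand: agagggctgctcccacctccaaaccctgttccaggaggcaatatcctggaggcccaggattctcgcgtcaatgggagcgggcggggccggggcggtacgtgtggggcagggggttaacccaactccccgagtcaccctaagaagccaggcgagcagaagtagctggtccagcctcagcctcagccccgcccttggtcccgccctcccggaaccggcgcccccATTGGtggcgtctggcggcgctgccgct
Cdk6, chr5:3343643-3343892, plus strand: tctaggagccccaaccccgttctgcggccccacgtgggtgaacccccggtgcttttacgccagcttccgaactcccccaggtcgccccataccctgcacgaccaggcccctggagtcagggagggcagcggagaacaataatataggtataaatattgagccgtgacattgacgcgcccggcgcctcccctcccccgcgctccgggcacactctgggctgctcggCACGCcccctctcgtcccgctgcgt
Mcm5, chr8:75109259-75109508, plus strand: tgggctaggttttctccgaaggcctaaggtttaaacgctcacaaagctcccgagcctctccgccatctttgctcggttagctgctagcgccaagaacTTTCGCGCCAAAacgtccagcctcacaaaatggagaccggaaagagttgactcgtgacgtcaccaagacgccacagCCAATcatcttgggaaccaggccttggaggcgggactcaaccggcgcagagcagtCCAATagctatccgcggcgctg
Cdk1, chr10:69352913-69353162, minus strand: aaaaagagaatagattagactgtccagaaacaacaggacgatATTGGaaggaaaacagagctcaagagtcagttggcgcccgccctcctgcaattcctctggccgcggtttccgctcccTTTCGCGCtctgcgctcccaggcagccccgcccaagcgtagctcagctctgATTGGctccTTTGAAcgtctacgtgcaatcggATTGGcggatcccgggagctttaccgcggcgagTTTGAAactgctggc
The Cdc25b stretch held 1 CCAAT match, at 28 to 24 bases before the start, and no GCGTG, E2F or CHR match. The Cdk6 stretch held 1 GCGTG match, on the minus strand at 25 to 21 bases before the start, and none of the others. By contrast, Mcm5 held 2 E2F and 2 CCAAT matches, and Cdk1 held 1 E2F, 2 CHR and 3 CCAAT matches. A match describes letters in this window and is not a binding site.

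The table held such a stretch for 43 of the 53 members and for 27025 genes in all. The E2F letters occurred in 7 of the 43 (16.3%), against 2.16% of all genes, and the CCAAT letters in 30 (69.8%), against 37.5%. GCGTG occurred in 23 (53.5%), against 30.9%, and the CHR letters in 13 (30.2%), against 19.6%. Within the list, 4 of 9 replication genes and 0 of 13 chromosome and spindle genes carried an E2F match, while 6 of those 13 and 3 of the 9 carried a CHR match. No test was made of these shares.

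TCDD was first set against vehicle, to see what it did to the cycle genes of donor cells that had already divided. Cdc25b rose and Cdk6 fell, so 2 of 53 members were called, against 1.24% of all genes (0.873% higher and 0.366% lower), and the other 51 were not. The median difference of the members was −0.01 (all genes, 0.00), 37 of 53 lay below 0 (69.8%, against 47.9% of all genes), and 4 (7.55%) had an unadjusted p under 0.05, against 8.69%. All members lay above the median gene, and the genes above it had a median of −0.0152, against −0.0119 for the members. The members' median was thus no lower than that of other bright genes. The arrays of the groups did not overlap in Cdc25b and Birc5, higher with TCDD, and Cdk6, lower, where 5.8% of all genes did not overlap. For all 53 members the 95% interval lay within ±1, a 2-fold change either way, and for 51 it lay within ±0.5.

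Cdc25b encodes a dual-specificity phosphatase that activates CDKs at the approach to mitosis. On the vehicle arrays it read 10.10, 10.21, 10.00 and 10.04, on the TCDD arrays 10.53, 10.57, 10.56 and 10.70, and on the Cl-BBQ arrays 10.29, 10.64, 10.53 and 10.64. Every treated array thus lay above every vehicle array, and the lowest of the treated arrays was Cl-BBQ 1. The mean went from 10.09 ± 0.09 in vehicle to 10.59 ± 0.08 with TCDD (SD, n = 4), a 1.42-fold rise (log2 difference 0.50, interval 0.34 to 0.67; limma adjusted p = 0.00233). With the arrays left out in turn the difference ranged from 0.47 to 0.54 and the gene stayed called. The related phosphatase gene Cdc25c, which also acts at mitosis, differed by −0.05 (interval −0.28 to 0.19), and Cdc25a, which acts from late G1 on, by −0.14 (interval −0.33 to 0.05). The rise of Cdc25b was therefore not seen as a call in either relative, and a difference between the 3 genes was not tested.

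Cdk6 encodes a kinase partner of the D cyclins that starts the inactivation of the retinoblastoma protein. Vehicle arrays read 10.36, 10.33, 10.66 and 10.46, TCDD arrays 9.83, 9.79, 9.86 and 9.95, and Cl-BBQ arrays 10.08, 9.77, 10.30 and 9.77. All treated arrays lay below all vehicle arrays, with Cl-BBQ 3 the nearest to vehicle. The mean fell 1.51-fold with TCDD, from 10.45 ± 0.15 to 9.86 ± 0.07 (SD, n = 4; log2 difference −0.60, interval −0.83 to −0.37; limma adjusted p = 0.00695), and ranged from −0.64 to −0.53 with arrays left out in turn. The sister kinase gene Cdk4 differed by −0.07 (interval −0.20 to 0.06), and the cyclin partners Ccnd2 by −0.17 (interval −0.37 to 0.02) and Ccnd3 by 0.15 (interval −0.04 to 0.34), none of them called. Cdkn1b and Cdkn2c, whose proteins inhibit CDKs, lay at 0.08 and 0.03.

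The D cyclins, which activate Cdk6, showed overlapping groups. Ccnd2 read 11.51, 11.61, 11.47 and 11.65 on the vehicle arrays, 11.26, 11.40, 11.31 and 11.58 with TCDD and 11.32, 11.61, 11.40 and 11.81 with Cl-BBQ, so that 3 of 4 TCDD arrays, but not TCDD 4, lay below all vehicle arrays. Ccnd3 read 9.84, 9.72, 9.60 and 9.60 in vehicle, 9.89, 9.85, 9.91 and 9.71 with TCDD and 9.95, 9.80, 9.84 and 9.55 with Cl-BBQ. On Cl-BBQ 4 Ccnd2 was thus at its highest and Ccnd3 at its lowest. Cdkn1b, an inhibitor that holds cells in G1, read 9.83, 10.19, 9.92 and 9.82 in vehicle, 9.96, 10.04, 10.06 and 10.03 with TCDD and 9.93, 10.16, 9.87 and 10.05 with Cl-BBQ, and its highest value was on vehicle 2.

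**Figure D1:**
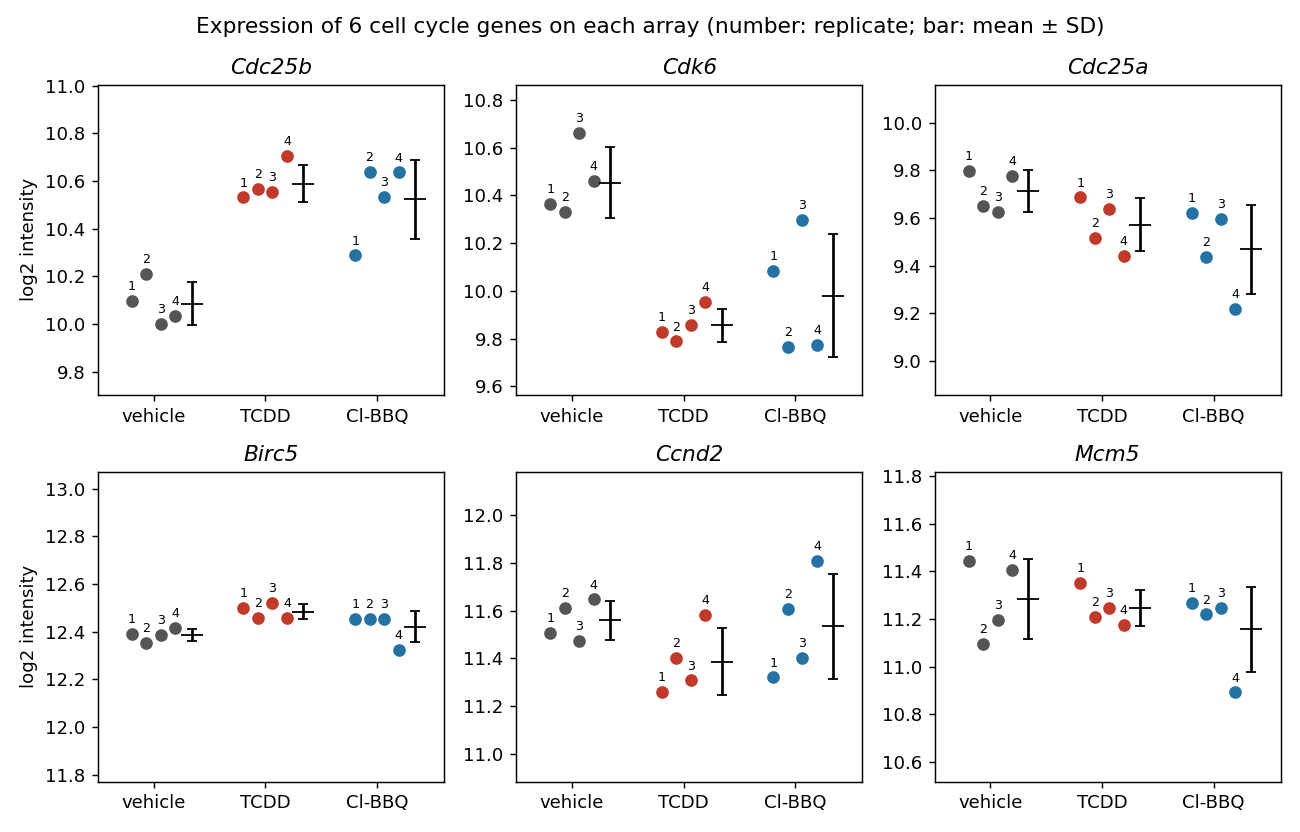
Log2 intensity of Cdc25b, Cdk6, Cdc25a, Birc5, Ccnd2 and Mcm5 on each of the 12 arrays (y axis), by group (x axis), with points for arrays and bars for the mean ± SD of 4 arrays. In Cdc25b all treated arrays lie above, and in Cdk6 all treated arrays lie below, the 4 vehicle arrays, whereas Mcm5 overlaps, with the array Cl-BBQ 4 lowest at 10.89.

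The rest of the G1 genes stayed within small intervals with TCDD. Over the 10 measured G1 cyclins, kinases and inhibitors, Cdk6 was the called gene, 6 lay below 0 and the median was −0.01. Ccne1 and Ccne2, the E cyclins that carry cells into S phase, differed by −0.02 (interval −0.25 to 0.20) and 0.06 (interval −0.25 to 0.36), and their kinase gene Cdk2 by −0.00 (interval −0.21 to 0.20). Ccne2 also had the widest spread of all members (pooled SD 0.258), so its interval is the least informative.

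None of the 5 cycle transcription factors was called with TCDD, with differences from −0.04 for Foxm1, a driver of mitotic genes, to 0.05 for E2f2, an activating E2F. E2f1, another activating E2F, read 8.17, 8.08, 7.96 and 8.17 in vehicle, 8.13, 8.04, 8.07 and 8.10 with TCDD and 8.003, 8.09, 8.06 and 8.07 with Cl-BBQ, all treated arrays lying inside the vehicle range. None of the 11 replication genes was called either: 10 of 11 lay below 0, yet the median was only −0.04 and the extremes were −0.08 (Mcm7, a helicase subunit) and 0.02 (Cdt1, which loads the helicase). For Pcna, the sliding clamp of the polymerases, vehicle arrays read 13.25, 13.19, 13.27 and 13.24, TCDD arrays 13.29, 13.18, 13.26 and 13.18 and Cl-BBQ arrays 13.25, 13.16, 13.21 and 13.13, and the TCDD interval of −0.08 to 0.06 is the narrowest of the list. These groups overlapped in every replication gene.

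Among the 4 nucleotide synthesis genes, Tk1, thymidine kinase of the salvage pathway, differed by −0.20 (interval −0.38 to −0.02; limma adjusted p = 0.487), with vehicle arrays at 10.72, 10.53, 10.45 and 10.81 and TCDD arrays at 10.48, 10.43, 10.44 and 10.36. The groups overlapped at the vehicle array of replicate 3. A second Tk1 probe set of nearly the same mean (10.51 for both) differed by −0.09 (interval −0.25 to 0.07). Tyms, thymidylate synthase, differed by −0.11, and the ribonucleotide reductase genes Rrm1 and Rrm2 by −0.00 and 0.04. Rrm2 read 12.47, 12.26, 12.34 and 12.52 in vehicle, 12.52, 12.40, 12.49 and 12.33 with TCDD and 12.53, 12.34, 12.41 and 12.10 with Cl-BBQ, where Cl-BBQ 4 was again the array below the vehicle range. None of the 4 was called.

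In mitosis the picture with TCDD was flat apart from Cdc25b. Over the other 7 of 8 mitotic entry genes, differences ran from −0.05 to 0.05 and none was called: Cdk1 stood at −0.01 (interval −0.13 to 0.12), the polo kinase gene Plk1 at 0.05, and the Aurora kinase genes Aurka and Aurkb at 0.04 and −0.01. Of 15 chromosome, spindle and mitotic exit genes, none was called and the median was −0.02. Birc5, which encodes survivin of the chromosomal passenger complex, was the member of that group with the smallest p. It read 12.39, 12.35, 12.39 and 12.41 in vehicle and 12.50, 12.46, 12.52 and 12.46 with TCDD, groups that did not overlap but differed by 0.10 (interval 0.02 to 0.17; limma adjusted p = 0.364). Mki67, the proliferation marker Ki-67, differed by −0.02 (interval −0.22 to 0.18) and Top2a, the topoisomerase that untangles chromosomes, by −0.02 (interval −0.13 to 0.09).

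The groups overlapped in Cdk1, Mki67, Top2a and Kif11. Cdk1 read 11.05, 10.88, 10.96 and 11.11 in vehicle, 10.96, 10.95, 10.999 and 11.05 with TCDD and 10.83, 10.94, 11.01 and 10.95 with Cl-BBQ. Mki67 read 11.72, 11.57, 12.01 and 11.89 in vehicle, 11.80, 11.69, 11.95 and 11.67 with TCDD and 12.00, 11.71, 11.89 and 11.63 with Cl-BBQ. Vehicle covered the widest range in both, and every TCDD and Cl-BBQ array of Mki67 lay inside it. Top2a read 12.53, 12.48, 12.70 and 12.71 in vehicle, 12.61, 12.51, 12.67 and 12.55 with TCDD and 12.59, 12.48, 12.54 and 12.47 with Cl-BBQ, and Kif11, a motor that pushes the spindle poles apart, 12.05, 11.95, 12.18 and 12.18, then 12.19, 12.04, 12.20 and 12.07, then 12.07, 12.01, 12.10 and 11.96. Kif11 differed by 0.04 with TCDD and by −0.05 with Cl-BBQ.

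**Figure D2:**
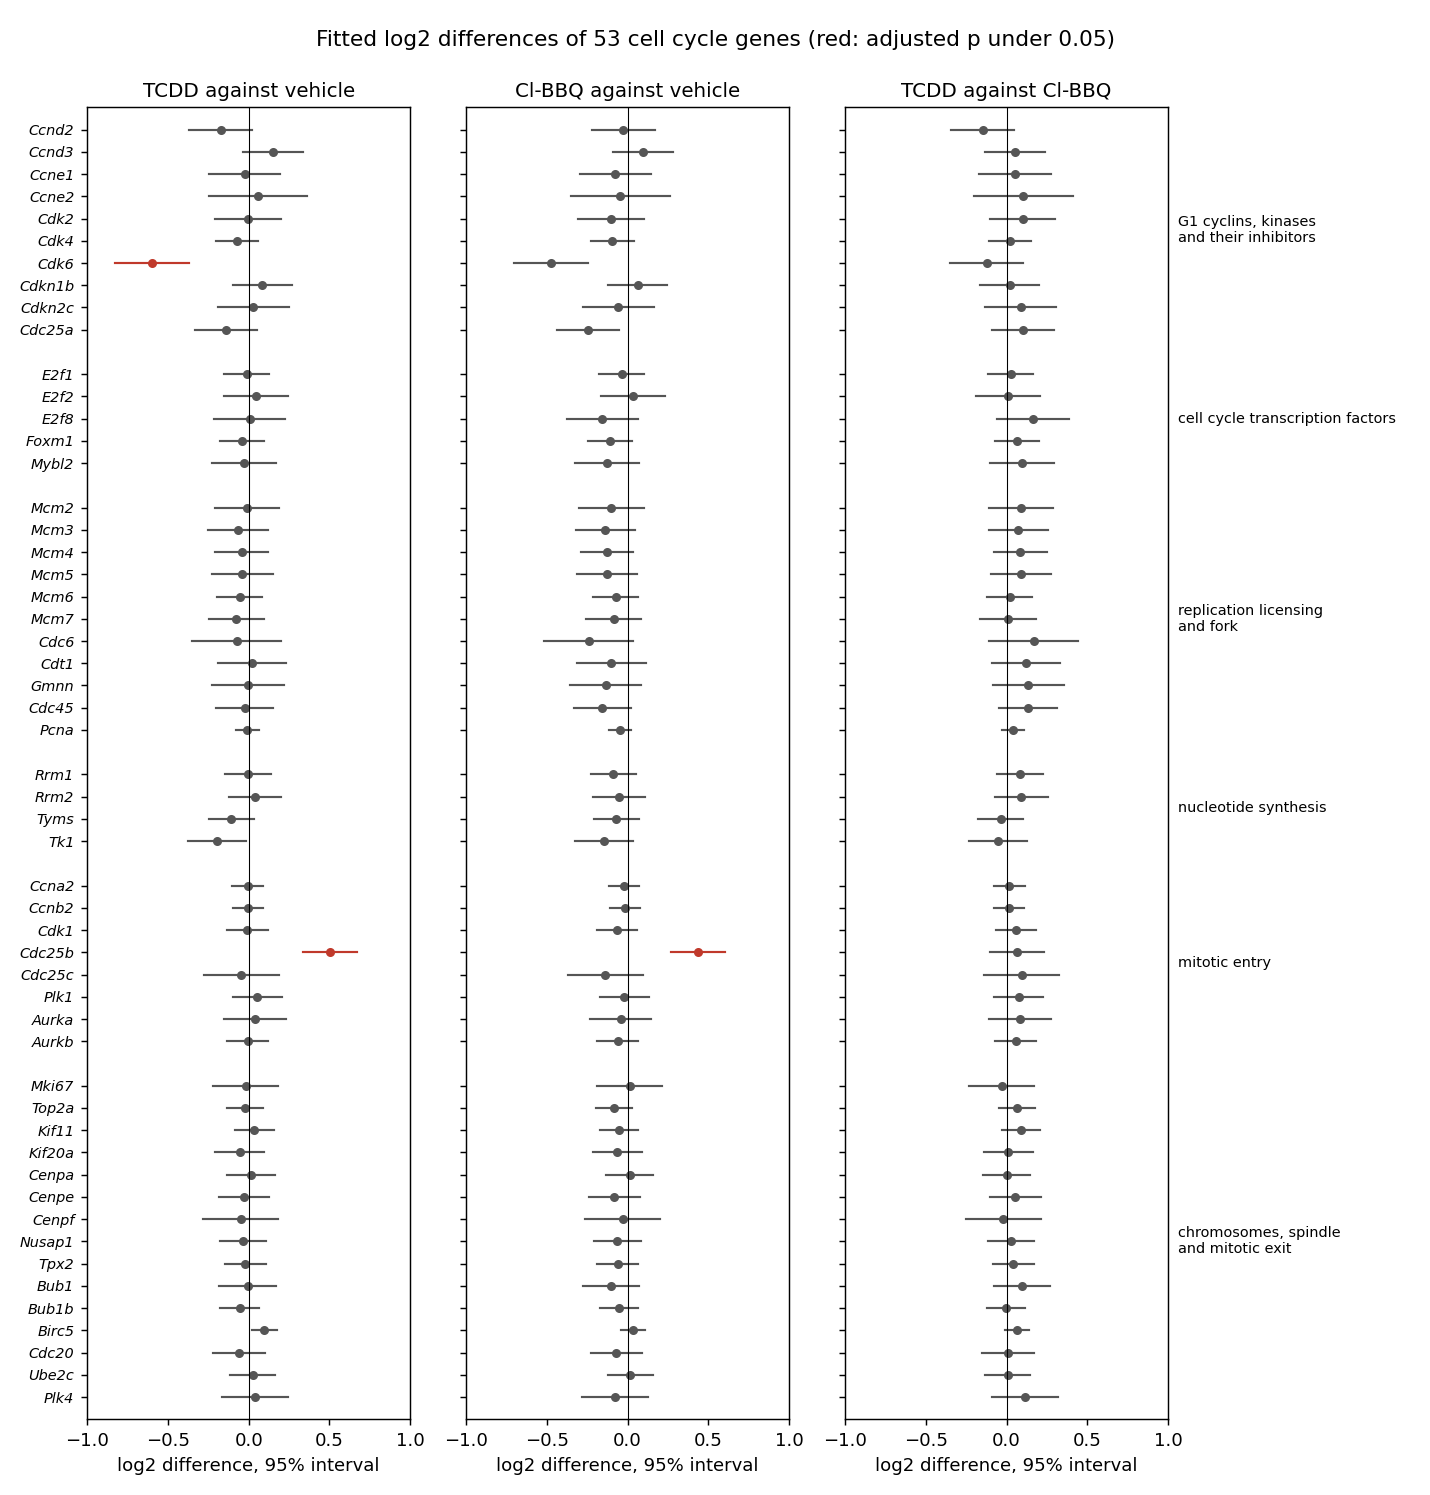
Log2 difference (x axis) of each of the 53 members (y axis, ordered by role) in the 3 comparisons, with points for the difference and bars for the 95% interval; called genes are red. Cdc25b and Cdk6 are called with TCDD and Cdc25b with Cl-BBQ, and in the panel of Cl-BBQ against vehicle 45 of 53 points lie left of 0.

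The comparison of Cl-BBQ with vehicle puts the same question for doses on 2 days, and uses the same vehicle arrays. Cdc25b rose again, and 1 of 53 members was called, against 0.196% of all genes (0.145% higher). Most other members lay slightly lower without a call: the median was −0.07 (all genes, 0.01), 45 of 53 lay below 0 (84.9%, against 45.2%), and 3 (5.66%) had an unadjusted p under 0.05, against 7.91%. Genes above the median gene, where all members lay, had a median of −0.02, so part of the contrast with all genes goes with brightness. The groups did not overlap in Cdc25b, higher, and Cdk6 and Cdc25a, lower, where 3.85% of all genes did not overlap. Intervals lay within ±1 for all 53 members and within ±0.5 for 50.

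The Cl-BBQ mean of Cdc25b was 10.52 ± 0.16 (SD, n = 4), 1.35-fold above vehicle (log2 difference 0.44, interval 0.27 to 0.61; limma adjusted p = 0.0385). This call is a close one. It was lost without Cl-BBQ replicate 2, 3 or 4 and without vehicle replicate 1, 3 or 4 (limma adjusted p from 0.0696 to 0.147), after median centring (adjusted p = 0.197), in a fit of the 2 groups alone (adjusted p = 0.111) and without the intensity trend (adjusted p = 0.0551), although the difference stayed between 0.40 and 0.52 throughout.

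Cdk6 with Cl-BBQ averaged 9.98 ± 0.26 (SD, n = 4), at a difference of −0.47 from vehicle (interval −0.70 to −0.25), and was not called (limma adjusted p = 0.105). It was called without Cl-BBQ replicate 3, the array that lacked the Cyp1b1 rise (log2 difference −0.58; adjusted p = 0.0238), and, at an adjusted p = 0.0186, in a fit blocked on replicate number. Cdc25a read 9.80, 9.65, 9.63 and 9.78 in vehicle and 9.62, 9.44, 9.60 and 9.22 with Cl-BBQ, and differed by −0.25 (interval −0.44 to −0.05; limma adjusted p = 0.489). Cl-BBQ 1 lay just under the lowest vehicle array, and Cl-BBQ 4 far under the rest. The D cyclin gene Ccnd2 differed by −0.03 and was highest of all 12 arrays on Cl-BBQ 4 (11.81), an array on which most other members were low.

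None of the 11 replication genes was called with Cl-BBQ. All 11 differed below 0, from −0.24 for Cdc6, which loads the helicase at origins, to −0.05 for Pcna, with a median of −0.13. The 6 helicase subunits Mcm2 to Mcm7 lay between −0.14 (Mcm3) and −0.07 (Mcm6), and Cdc45, which joins the helicase at the fork, at −0.16 (interval −0.34 to 0.02). The 11 intervals all include 0 and reach down to −0.52, that of Cdc6.

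That shift was largest on 1 array. Relative to the vehicle mean, the median of the replication genes was 0.03, −0.08, −0.06 and −0.37 on Cl-BBQ 1 to 4. On Cl-BBQ 2 and Cl-BBQ 3 all 11 also lay below the vehicle mean. Cdc6 read 10.47, 10.15, 10.25 and 9.70 on Cl-BBQ 1 to 4, Mcm5 11.27, 11.22, 11.25 and 10.89, and Gmnn, which encodes the inhibitor of Cdt1, 10.56, 10.49, 10.44 and 10.05. The vehicle arrays ran from 10.21 to 10.53, 11.09 to 11.44 and 10.38 to 10.71 in these genes. Cl-BBQ 4 lay below all of them in each gene, whereas of the other Cl-BBQ values only that of Cdc6 on Cl-BBQ 2 lay below the vehicle range. Without Cl-BBQ 4 the median of the replication genes went from −0.13 to −0.04, with 11 of 11 still below 0, and that of all members from −0.07 to −0.03. Replication then no longer had the lowest median of the roles, with G1 genes at −0.05 and transcription factors at −0.05. With TCDD, Cdc6 read 10.49, 10.19, 10.36 and 10.20, Gmnn 10.61, 10.45, 10.60 and 10.40 and Mcm5 11.35, 11.21, 11.25 and 11.18, and of these only Cdc6 on TCDD 2 and TCDD 4 lay below the vehicle range. Cdc45 read 10.85, 10.61, 10.70 and 10.82 in vehicle, 10.81, 10.68, 10.75 and 10.65 with TCDD and 10.72, 10.56, 10.73 and 10.34 with Cl-BBQ, its lowest value again on Cl-BBQ 4. Leaving out vehicle replicate 4, the highest vehicle array, also gave −0.03 for all members and left 35 of 53 below 0. The replication median was then −0.09, and it was −0.08 without vehicle replicate 1. Without Cl-BBQ 3 the medians of replication genes and of all members were −0.14 and −0.08.

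The other roles also had medians below 0 with Cl-BBQ, and differences between roles were not tested. Median differences were −0.07 for G1 genes, −0.11 for transcription factors, −0.08 for nucleotide synthesis, −0.03 for mitotic entry and −0.06 for chromosome and spindle genes, and apart from Cdc25b none of them held a called gene. Among the factors, E2f8, an E2F that represses transcription, differed by −0.16, Mybl2, which encodes B-MYB, by −0.12 and Foxm1 by −0.11, and E2f2 by 0.03. Tk1 read 10.51, 10.65, 10.48 and 10.29 on the Cl-BBQ arrays, overlapping vehicle, and differed by −0.15 (interval −0.33 to 0.03, limma adjusted p = 0.704). Its second probe set differed by −0.08 (interval −0.24 to 0.09). E2f8 read 11.54, 11.21, 11.36 and 11.60 in vehicle, 11.49, 11.36, 11.53 and 11.36 with TCDD and 11.49, 11.24, 11.41 and 10.94 with Cl-BBQ. In mitosis, Cdc25c lay at −0.14 (interval −0.37 to 0.09), Bub1, a checkpoint kinase gene, at −0.10, and Mki67 and Cenpa, the centromeric histone, both at 0.01. Birc5 differed by 0.03 (interval −0.04 to 0.11).

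Between arrays of the same group the members rose and fell together. With each member set to its vehicle mean, the median over the 53 was 0.05, −0.14, −0.05 and 0.11 on vehicle 1 to 4, 0.02, −0.07, 0.03 and −0.06 on TCDD 1 to 4, and −0.01, −0.05, −0.02 and −0.17 on Cl-BBQ 1 to 4, while the median of all genes stayed between −0.02 and 0.04. Vehicle alone thus spans most of the range covered by all arrays. Vehicle 4 had 50 of 53 members above the vehicle mean and vehicle 2 had 7, and on Cl-BBQ 4 the count was 8. Cl-BBQ 4 was the lowest of its group in 36 members, against 19.9% of all genes, and the lowest of all 12 arrays in 29, against 9.31%. Vehicle 2 was the lowest of its group in 38 members, against 21.1% of all genes.

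The low arrays differed in which roles were low. On Cl-BBQ 4 the median was −0.37 for replication and −0.30 for nucleotide synthesis genes, −0.26 for G1 genes and −0.19 for transcription factors, but −0.09 for mitotic entry and −0.08 for chromosome and spindle genes. On vehicle 2 the roles were more even, at −0.15 for replication, −0.13 for nucleotide synthesis and −0.14 for chromosome and spindle genes. There the median was −0.10 for mitotic entry, −0.09 for transcription factors and −0.08 for G1 genes. The largest falls on Cl-BBQ 4 were those of Cdc6 (−0.68), Cdk6 (−0.68) and Ccne2 (−0.60). The 8 members above the vehicle mean on that array were Cdc25b (0.55), Ccnd2 (0.25), the CDK inhibitor genes Cdkn2c (0.12) and Cdkn1b (0.11), Cenpa, Ube2c, E2f2 and Nusap1. These arrays were singled out after their values were seen, and no test was made on them.

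**Figure D3:**
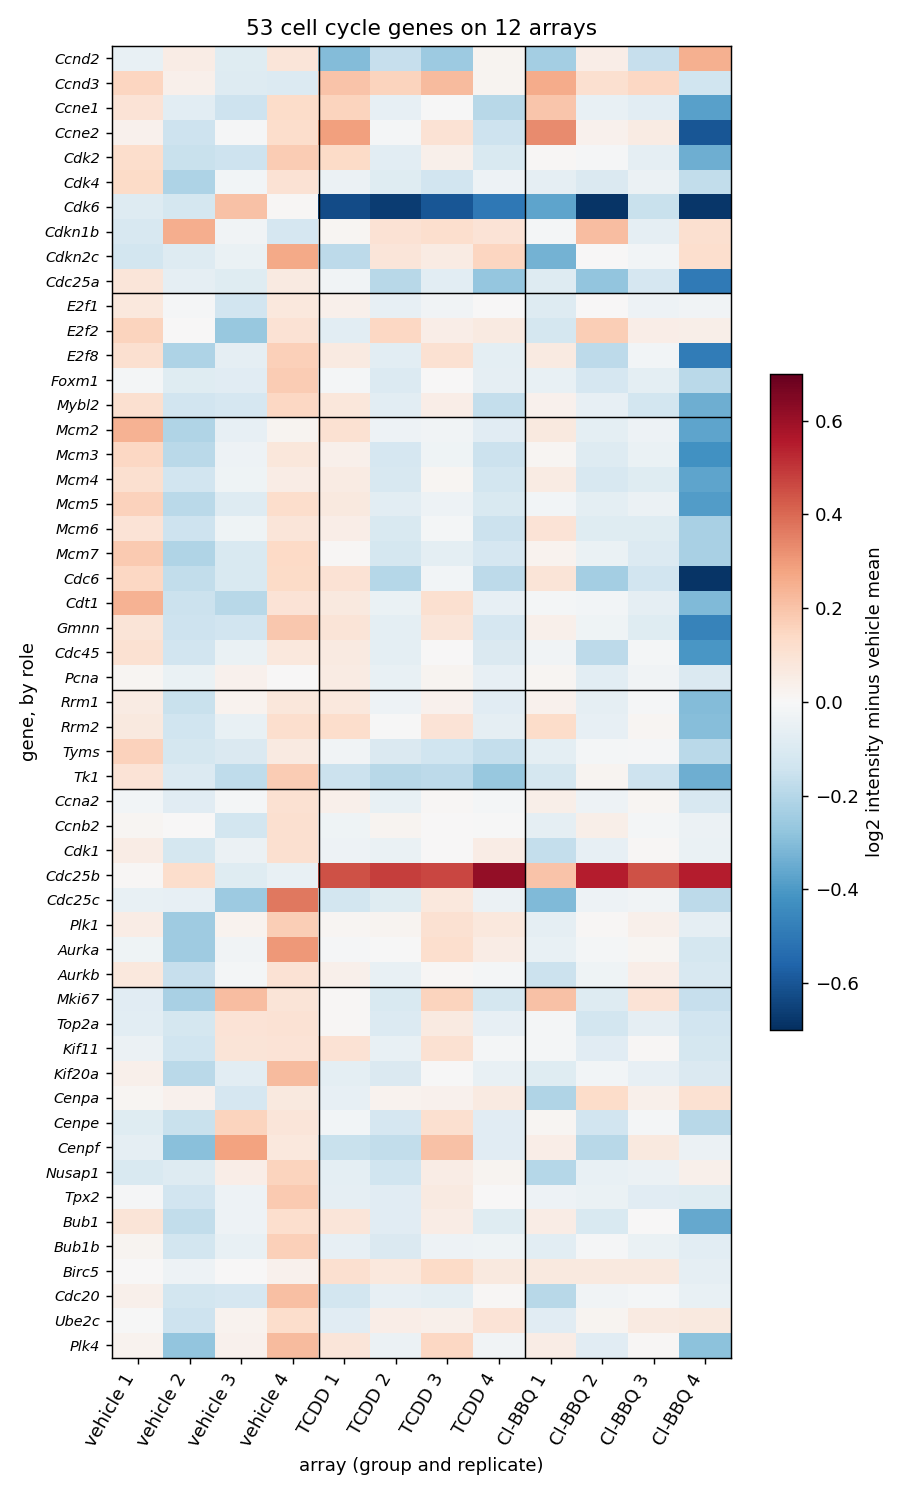
Log2 intensity minus the mean of the 4 vehicle arrays (colour) for the 53 members (rows, by role) on the 12 arrays (columns, by group). The column of Cl-BBQ 4 is lowest in the replication and nucleotide synthesis rows (medians −0.37 and −0.30), and vehicle 4 is above the vehicle mean in 50 rows. Cdc25b lies above and Cdk6 below the vehicle mean in all treated columns, least so on Cl-BBQ 1 for Cdc25b and on Cl-BBQ 3 for Cdk6.

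**Figure D4:**
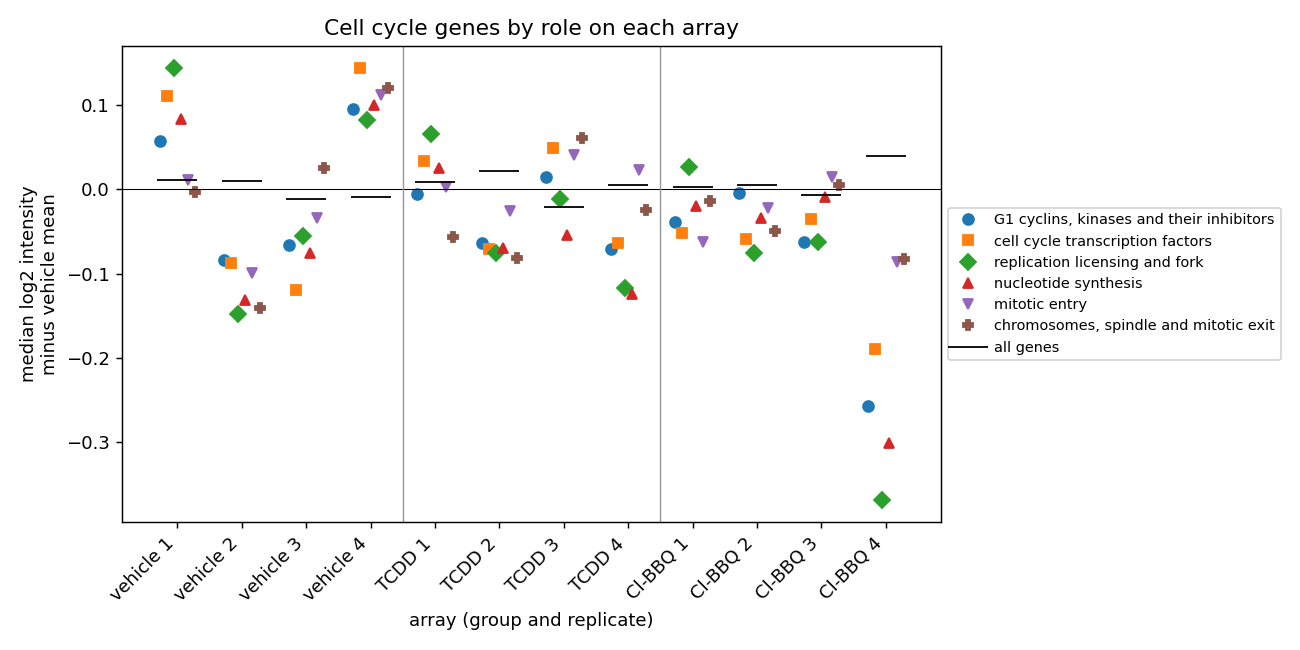
Median over the members of each role, and over all genes, of log2 intensity minus the vehicle mean (y axis) for each array (x axis, by group), with 1 point per array. Replication genes range from 0.14 on vehicle 1 to −0.37 on Cl-BBQ 4, while all genes stay between −0.02 and 0.04.

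Set beside all genes above the median gene, the members scattered somewhat more. That set was not matched on brightness. Their median pooled SD within groups was 0.131, against 0.111 for the 9969 genes above the median gene. By group the median SD was 0.133 in vehicle, 0.0777 with TCDD and 0.135 with Cl-BBQ, against 0.102, 0.0859 and 0.116 for those genes, so TCDD arrays were the ones on which the members scattered less than the rest. Cdc6 (0.226), like Ccne2, was among the most variable. The typical interval of a member extended 0.171 to either side of its difference.

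The comparison of TCDD with Cl-BBQ sets the compounds against each other at their own doses and schedules. No member was called, against 0.015% of all genes, and 0 had an unadjusted p under 0.05 in limma, against 2.99%. The members lay slightly higher with TCDD (median 0.06; all genes, −0.00), with 7 of 53 below 0 (13.2%, against 52%), and Birc5 was the member whose arrays did not overlap (2.04% of all genes). All 53 intervals lay within ±0.5. For the genes called against vehicle, the difference between the compounds was 0.07 for Cdc25b (interval −0.10 to 0.23) and −0.12 for Cdk6 (interval −0.35 to 0.10), which does not show that the compounds act alike.

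The size of that small shift also depended on 1 array. Replication genes had a median of 0.09 with 0 of 11 below 0, and without Cl-BBQ 4 the median was 0.00 with 3 of 11 below 0; for all members it went from 0.06 to 0.02, with 16 of 53 below 0, so most stayed higher with TCDD. The median of the mitotic entry genes was 0.06 with and without that array. Among single genes, Cdc6 differed by 0.17 (interval −0.11 to 0.44), E2f8 by 0.16, Cdc45 by 0.13 and Ccnd2 by −0.15. TCDD and Cl-BBQ arrays of the same number deviated together, as did some of unlike number, and a fit of these 2 groups with the number as a block called 0 members and 53 genes (0.266%) in place of 3. In that fit, chosen after the data were seen, 12 members (22.6%) had an unadjusted p under 0.05, against 7.43% of all genes. Of the 12, 11 were higher with TCDD and 1, Ccnd2, lower. The main fit gave 0 such members, and the replicate block over all 3 groups gave 1. No label says that the number pairs arrays, so no conclusion is drawn from the share of 22.6%.

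The other 4 lists held cycle genes outside the members and, like the members, were chosen with earlier results of these data known. Of 16 G1 genes, most but not all of them drivers, Pim1, a kinase gene induced by cytokines, was called with TCDD, and 15 were not called. Pim1 rose 1.46-fold on arrays that did not overlap (limma adjusted p = 0.00695). It read 9.51, 9.39, 8.94 and 9.36 in vehicle and 9.80, 9.85, 9.83 and 9.91 with TCDD. Chosen after their values were seen, Myc, Pim2, Tfdp2 and Ccnh lay below vehicle on all TCDD arrays without a call. Arrays thus did not overlap in 1 gene higher and 4 lower of 16, against 5.8% of all genes. A call higher was made in 1 of 16, against 0.873% of all genes. Myc, a growth factor-induced transcription factor, differed by −0.28 (interval −0.44 to −0.11, limma adjusted p = 0.127) and Pim2, a relative of Pim1, by −0.32 (limma adjusted p = 0.104). At an unadjusted p under 0.05 the list held 6 of 16 (37.5%) with TCDD, against 8.69% of all genes, and 6 with Cl-BBQ, against 7.91%. These shares were not tested. With Cl-BBQ Pim1 stood at 0.31 (adjusted p = 0.374) and Ccnh, a subunit of the CDK-activating kinase, at −0.20 (adjusted p = 0.128).

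Of 36 brakes, checkpoint genes and p53 targets, Gadd45g, a stress-induced inhibitor of the cycle, was called with TCDD, 1 gene where 1.24% of all genes were called. At an unadjusted p under 0.05 the list held 16.7% of its genes with TCDD, against 8.69% of all genes, and 11.1% with Cl-BBQ, against 7.91%. Gadd45g read 7.54, 7.48, 7.32 and 7.33 in vehicle, 7.77, 7.87, 7.85 and 7.97 with TCDD and 7.48, 7.70, 7.58 and 7.84 with Cl-BBQ. The TCDD arrays lay above all vehicle arrays, a 1.36-fold rise (limma adjusted p = 0.00957), while the Cl-BBQ arrays overlapped vehicle (log2 difference 0.23; adjusted p = 0.471). The median of the list was 0.01 with either compound and no other brake was called; with Cl-BBQ the smallest p were those of Atr, a checkpoint kinase gene (−0.25), and Tob1, an antiproliferative gene (0.29). Between the compounds Pim1 differed by 0.24, Ccnd1, another D cyclin gene, by 0.17, Gadd45g by 0.22 and Sesn1, a p53 target, by −0.21, none of them called.

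Of 48 other replication genes and 53 other mitotic genes, none was called in any comparison by limma, against 2 and 1 with TCDD, 4 and 4 with Cl-BBQ and 1 and 5 between the compounds at an unadjusted p under 0.05. As shares these were 4.17% and 1.89% with TCDD (8.69% of all genes), 8.33% and 7.55% with Cl-BBQ (7.91%) and 2.08% and 9.43% between the compounds (2.99%). With Cl-BBQ 46 of the 48 (95.8%) and 48 of the 53 (90.6%) lay below 0, against 45.2% of all genes, at medians of −0.12 and −0.06, and on Cl-BBQ 4 the medians were −0.35 and −0.15. The genes with the smallest p included Rpa1 (0.15 with TCDD), of the single-strand binding complex, Pold2 (−0.17 with TCDD and −0.19 with Cl-BBQ), a polymerase subunit, Ect2 (0.17 with TCDD), which directs cell cleavage, and Kif18a (−0.20 with Cl-BBQ), a spindle motor. Cks1b, which binds CDKs, lay at −0.06 with TCDD, and Dbf4, which activates the kinase that fires origins, at −0.15 with Cl-BBQ. Incenp, the scaffold of the passenger complex, differed by −0.14 between Cl-BBQ and vehicle and by 0.16 between TCDD and Cl-BBQ. Between the compounds Dbf4 differed by 0.14, the fork protection gene Tipin by 0.18 and Ect2 by 0.17.

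Markers of other cells that the sort could hold were mostly dim, with a CD8 gene among the exceptions. In the B cell list 2 of 12 measured genes lay above the median gene. Its summed linear intensity was 1182 to 1415 in vehicle, 1103 to 1195 with TCDD and 1136 to 1215 with Cl-BBQ. Cd22 and Bank1 fell with TCDD, while 5 of the 12 were higher and the median difference of the list was −0.01. Of 17 myeloid genes 3 lay above the median gene (sums 1810 to 1909, 1763 to 1865 and 1778 to 1880). Cd74 fell with TCDD, while 8 of the 17 were higher and the median difference was −0.02. Sums over 6 NK genes were 633 to 925, 592 to 713 and 708 to 849. Eomes fell with TCDD, while 2 of the 6 were higher. In the B cell, myeloid and NK lists, 2 of 12, 1 of 17 and 1 of 6 were called lower with TCDD, against 0.366% of all genes. Of the 2 CD8 T cell genes 1, Cd8b1, lay above the median gene, at 9.73 to 10.13 in vehicle, 9.57 to 9.88 with TCDD and 9.68 to 10.07 with Cl-BBQ. Cd8a read 8.47 on vehicle 2, the vehicle array lowest in the members, and 6.87 to 7.63 on the other 11 arrays. Sums over the pair were 978 to 1308, 906 to 1080 and 952 to 1196. None of 11 neutrophil and platelet genes and none of 3 erythroid genes lay above the median gene, and no marker was called with Cl-BBQ by limma. The part of these cells in the values above was not tested, and in bulk RNA fewer cells with a transcript and less transcript per cell cannot be told apart.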

How the data were processed

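Expression was measured on 12 mouse gene arrays, 4 per group. The deposited values are log2 intensities made by the authors with RMA, per the submitters' processing notes; the log2 scale was read from the values (2.49 to 14.2), while the sources used here do not give the RMA version or probe library. RMA sets all arrays to like distributions, so a change in total RNA per cell is not measured. The labels name an oligo-dT labelling kit made for 3′ arrays. Of 35556 probe sets, 21789 carried 1 symbol in the platform table, 1621 several and 12146 none; the brightest per gene was kept, which decided among several probe sets for 999 genes and 4 members. Symbols of 53 of 53 members matched RefSeq (GRCm38.p6).

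One limma 3.58.1 fit (R 4.3.3) covered the 3 groups (9 residual degrees of freedom, intensity trend), two-sided, with Benjamini-Hochberg adjustment over 19938 genes. Dim genes were kept. Precision is limited by the number of arrays. The script was tested on simulated data. Same-numbered TCDD and Cl-BBQ arrays deviated together (correlations of deviations across genes 0.606, 0.113, 0.157 and 0.365), but some pairs of unlike number did so as well (TCDD 4 with Cl-BBQ 2, 0.419; TCDD 2 with Cl-BBQ 4, 0.243); no label says what the number marks. Same-numbered pairs with vehicle ran from −0.070 to 0.182 for TCDD and from −0.134 to 0.087 for Cl-BBQ. Pairs of unlike number reached 0.376 (TCDD 1 with vehicle 3) and 0.505 (Cl-BBQ 1 with vehicle 3). Alternatives were the trend, normalization, probe set choice, dim genes, groups fitted, array weights, replicate block and leaving out each array. Promoter stretches came from RefSeq.

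The members and lists were chosen with earlier results of these data known. By the naming rule, values by array were given for called members, for the 6 smallest p of each comparison and for Mki67, Pcna, Ccnd2, Cdk1, Cdkn1b, Mcm5, E2f1, Rrm2 and Top2a. Cdkn1a was also on that rule, but its probe set carries several symbols and was not analysed. Of other lists the called genes, or else the smallest 2 p, were named. Myc, Pim2, Tfdp2 and Ccnh with TCDD, were chosen after their values were seen. Plots used matplotlib 3.10.9 (Python 3.11.15).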

Additional observations from a re-analysis of the deposited data

Results flagged for a closer look

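Over 81 groups of 4 values (20 members and the role medians), 4 held an array far from the others, and all 4 were Cl-BBQ 4. Chance gives about 1 in 20 for independent groups. These groups share arrays, so the count cannot be set against that rate. Birc5 read 12.32 on Cl-BBQ 4 and 12.45 on each of the other Cl-BBQ arrays. Mcm5 read 10.89 there, against 11.22 to 11.27. The median of the cycle transcription factors, as log2 minus the vehicle mean, was −0.19 on Cl-BBQ 4, and that of nucleotide synthesis genes was −0.30. The members and medians share arrays and are not independent of each other.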

How the results depend on the processing

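With TCDD, Cdc25b and Cdk6 kept their calls in all alternatives. The 247 genes called became 160 with median centring (125 higher and 35 lower, in place of 174 and 73), 391 with array weights (259 and 132), 397 with the replicate block (240 and 157), and 150 to 227 with each array left out, 150 without TCDD replicate 3. With Cl-BBQ, the 1 member called (Cdc25b) became 0 without the trend, with median centring and with the 2 groups alone, and 2 with the replicate block, where Cdk6 joined it; leaving out arrays gave 0 to 1, and without Cl-BBQ replicate 3 the 1 was Cdk6. The 39 genes called with Cl-BBQ became 18 without the trend (12 higher and 6 lower, in place of 29 and 10), 71 with quantile normalization, 8 with median centring, 11 with the 2 groups alone and 111 with the replicate block (72 and 39), and 3 to 61 with arrays left out: leaving out Cl-BBQ replicate 1 gave 61, replicate 2 gave 3 and replicate 4 gave 16, and leaving out vehicle replicate 1 gave 9 and replicate 4 gave 4. Between the compounds, 3 genes called became 0 without the trend, with quantile normalization and with the 2 groups alone, 9 with array weights, 5 with the replicate block, 53 with the block in the 2 groups alone (chosen after seeing the data), and 0 to 7 with arrays left out: 0 without Cl-BBQ replicate 4 or any TCDD array, 1 without Cl-BBQ replicate 3 and 7 without Cl-BBQ replicate 1. The cause of these changes was not tested. Member medians with arrays left out ran from −0.06 to 0.02 with TCDD, −0.12 to −0.03 with Cl-BBQ and 0.02 to 0.07 between the compounds, so the TCDD median has no stable sign. Of 980 fits of single named members, 11 changed a call and 0 called members changed sign. The replicate block changed no other member's call. Intervals of about ±0.171 leave smaller shifts of single genes unresolved.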
